A study of Citrus trifoliata with 2 samples.

Results

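Transcripts resembling the flowering-time genes SOC1 and AGL19 were examined in buds of trifoliate orange (Citrus trifoliata), a hardy relative of the citrus crops. A unigene is a transcript model built from the reads, with no genome position, and several unigenes can be pieces of 1 transcript. The members are all rows of the deposited table whose Swiss-Prot best hit is the Arabidopsis entry SOC1_ARATH or AGL19_ARATH. The rule uses the annotation and not the expression values. It gave 4 SOC1 unigenes and 2 AGL19 unigenes, 6 of 35775 in all, which are Unigene3347_All, Unigene19004_All, Unigene1570_All and Unigene19612_All for SOC1 and Unigene13701_All and Unigene13903_All for AGL19. The ending _All is left out in what follows.

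The study set a precocious trifoliate orange, labelled the mutant, beside a normal trifoliate orange, labelled the wild type, with 1 RNA-seq library of each and no treatment. Each library was made from polyA RNA of the terminal bud and the next 5 buds of spring shoots on trees 2 years old, collected as flowers were being initiated, once the shoots had self-pruned (shed their tips). The number of trees per library and the gene altered in the mutant were not stated in the sources used here. The question is how the early-flowering tree and the normal tree differ in bud transcripts at that stage.

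SOC1 and AGL19 encode related MADS-box transcription factors, a family that shares a DNA-binding domain and includes most regulators of floral organs. In Arabidopsis, SOC1 is an integrator: day length acting through CONSTANS and FT, plant age acting through SPL factors, and gibberellin all raise it, while FLC and SVP hold it down, and its protein helps to switch on the meristem identity gene LEAFY. AGL19 promotes flowering in a cold-responsive route that does not pass through FLC, and Polycomb proteins keep it silent before cold.

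The libraries were of nearly equal depth, at 10037 (mutant) and 9995 (wild type) in units of 1000 reads. Expression levels are given as RPKM, which scales reads by unigene length and library total. A fold is the mutant value over the wild-type value from raw reads and library totals, and the range after it is an exact 95% binomial (Clopper-Pearson) interval. Such intervals cover counting error only. They can be too narrow even for that, since reads without molecular identifiers are not independent molecules. With 1 library per group, differences between trees could not be measured and no test was made. Fewer cells of a type and less RNA per cell cannot be told apart in such bulk samples. Markers of other material were compared as well. Summed over unigenes, leaf mesophyll markers (46 photosystem and chlorophyll-binding unigenes) were at 17290 RPKM in the mutant and 18640 RPKM in the wild type. Phloem markers (25) were at 605 and 608, and shoot meristem markers (20, all hits to STM or CLAVATA1) at 131 and 120. Most of the meristem list were CLAVATA1 hits, which went both ways. Both STM unigenes had fewer reads in the mutant library. They had 136 against 163 (0.831-fold, 0.657 to 1.05, Unigene27959) and 1 against 8 (0.1245-fold, 0.0028 to 0.928, Unigene33575). Unigene33575 was not kept, and it was named after its values were seen. The other 8 listed meristem entries, among them WUS and CLAVATA3, had no best hit in the table. The next counts cover kept unigenes (at least 1 RPKM in a library) and use the ratio of RPKM with 1 added. That scale, described further below, understates differences at low levels, so folds from reads can pass 2 where it does not. On it 0 of 45 mesophyll markers reached 2-fold in either direction. For phloem 0 of 24 were higher and 2 lower, and for meristem 1 of 18 was higher and 2 lower. The ratio was positive in 16 of the 45 mesophyll, 12 of the 24 phloem and 9 of the 18 meristem markers. The median log2 ratios were -0.11, -0.02 and 0.11. Over all unigenes kept by the same minimum, 8.61% were higher by 2-fold or more and 5.31% were lower by as much. The ratio was positive in 53.8% of them. The 862 unigenes with a fungal best hit, which can include plant genes, held 298507 and 296025 reads. The part of such material in the results was not tested.

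SOC1 reads were more numerous in the mutant library, and most of the excess came from 1 of the 4 unigenes. Together the SOC1 unigenes had 40 mutant reads and 22 wild-type reads, a fold of 1.81 (1.05 to 3.20). The lower limit of that interval lies close to 1. Over their joint length of 1220 bases this is a level of 3.27 RPKM (2.33 to 4.45) against 1.80 RPKM (1.13 to 2.73), with exact Poisson intervals that overlap. Unigene3347 (353 bases) had 22 reads against 8, that is 6.21 RPKM (3.89 to 9.40) for the mutant and 2.27 RPKM (0.979 to 4.47) for the wild type, with level intervals that overlap at their ends. Its fold of 2.74 (1.17 to 7.11) was the largest of the 6 members and the only one with an interval that excludes 1. Of all unigenes with at least 1 RPKM in a library, 19.8% had an interval wholly above 1.

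The other SOC1 unigenes lay near or below 3 RPKM in both libraries and went both ways. Unigene1570 (283 bases) had 8 reads against 6, or 2.82 RPKM (1.22 to 5.55) for the mutant and 2.12 RPKM (0.778 to 4.62) for the wild type. Unigene19004 (346 bases) had 6 reads against 3, at 1.73 RPKM (0.634 to 3.76) and 0.868 RPKM (0.179 to 2.54). Unigene19612, the shortest at 238 bases, leaned toward the wild type with 4 reads against 5, at 1.67 RPKM (0.456 to 4.29) and 2.10 RPKM (0.683 to 4.91). The intervals overlap widely for each of these. Their folds were 1.33 (0.404 to 4.64), 1.99 (0.425 to 12.3) and 0.797 (0.158 to 3.70), so neither a doubling nor a halving falls outside the interval of any of them.

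**Figure D1:**
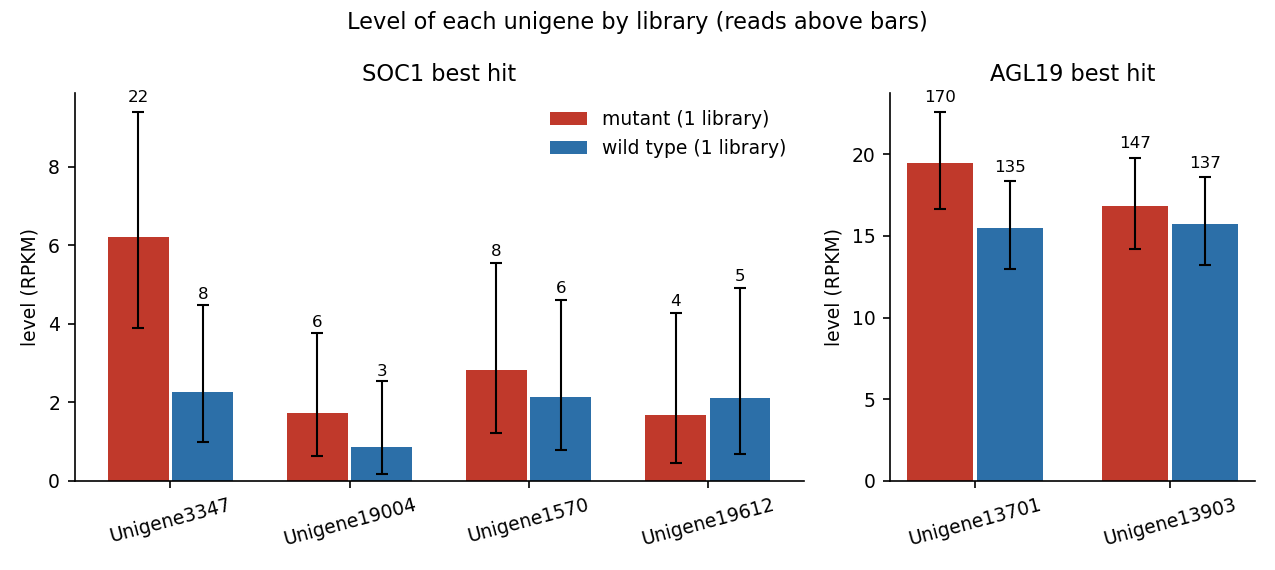
Level in RPKM of each unigene (bars) in the mutant library (red) and the wild-type library (blue), with exact 95% Poisson intervals and the read count above each bar; the panels have different vertical scales. Unigene3347 stands at 6.21 RPKM in the mutant library against 2.27, and the intervals of the libraries overlap for all 6 unigenes.

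Without Unigene3347 the SOC1 reads were 18 against 14, a fold of 1.28 (0.602 to 2.78). That unigene, set aside because it had the most reads, thus held most of the excess reads. The interval without it still includes the fold of 1.81 for the full SOC1 sum. Unigene3347 took 55.0% (38.5 to 70.7) of the SOC1 reads in the mutant and 36.4% (17.2 to 59.3) in the wild type, for 28.9% of the joint length. Its fold was 2.11 times (0.652 to 7.25) that of the other 3 SOC1 unigenes together, an exact conditional interval that includes 1. The reads thus do not separate Unigene3347 from the other SOC1 unigenes. Summing RPKM instead of reads, so that each unigene counts by its own length, gave 12.4 against 7.36 RPKM, a fold of 1.69.

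Depth sets what these unigenes can show. With 9 reads in all, as for Unigene19004 and Unigene19612, the mildest split with an interval above 1 is 8 reads against 1, a fold of 7.97. With the 14 reads of Unigene1570 it is 12 against 2, a fold of 5.98, and with the 30 reads of Unigene3347 it is 21 against 9, a fold of 2.32. For all 62 SOC1 reads it is 40 against 22, which is the split observed. A true difference of moderate size in the 3 sparsest unigenes was not detectable at this depth.

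**Figure D2:**
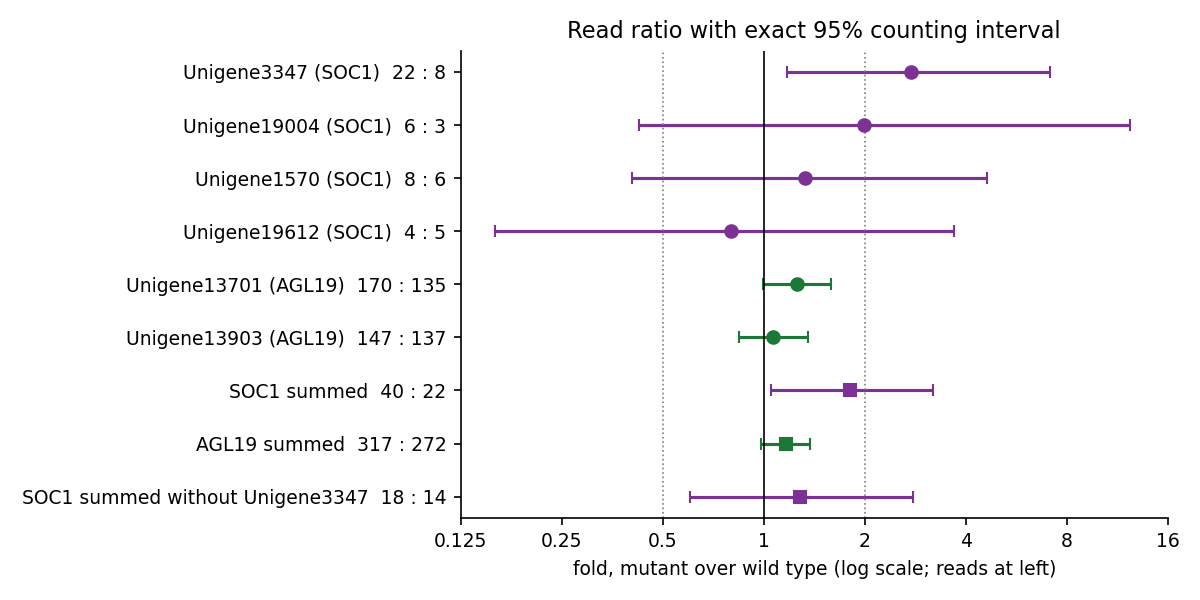
Fold of each unigene and of the summed reads (horizontal axis, log scale) with exact 95% counting intervals; circles are unigenes, squares are sums, purple is SOC1, green is AGL19, and dotted lines mark 2-fold. The intervals of Unigene3347 and of the SOC1 sum lie right of 1, and the interval of the SOC1 sum without Unigene3347 spans it.

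AGL19 was far better covered, and both of its unigenes were nearly level between the libraries. Unigene13701 (871 bases) had 170 reads against 135, that is 19.4 RPKM (16.6 to 22.6) for the mutant and 15.5 RPKM (13.0 to 18.4) for the wild type, which overlap. Its fold of 1.25 (0.994 to 1.58) has an interval that just includes 1. Unigene13903 (870 bases) had 147 reads against 137, at 16.8 RPKM (14.2 to 19.8) and 15.8 RPKM (13.2 to 18.6), a fold of 1.07 (0.841 to 1.36). Summed, AGL19 had 317 reads against 272, a fold of 1.16 (0.984 to 1.37). That interval excludes a doubling in these libraries as far as counting error goes. The folds of the 2 unigenes differed by a factor of 1.17 (0.837 to 1.65), within counting error.

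The AGL19 unigenes were alike in length and level but not in how well they match the Arabidopsis protein. Unigene13903 matched AGL19 with an E-value of 6e-66, and Unigene13701, 1 base longer, with 1e-09. They took 46.4% and 53.6% of the AGL19 reads in the mutant and 50.4% and 49.6% in the wild type. The SOC1 unigenes, all shorter than the median unigene of 547 bases, matched with E-values of 1e-28 for Unigene19004, 1e-16 for Unigene1570, 2e-15 for Unigene3347 and 3e-06 for Unigene19612. None of the 6 had a hit in the larger protein collection of the table, which is also true of 50.4% of all unigenes with a Swiss-Prot hit. Unigene13903 was the only member with terms of molecular function, among them sequence-specific DNA binding. Whether the 4 SOC1 pieces belong to 1 gene or to several, and how the counting treated reads that fit more than 1 copy, is not given in the sources used here.

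Per length, AGL19 stood well above SOC1 in both libraries. The summed AGL19 level was 5.55 times (3.99 to 7.92) the SOC1 level in the mutant and 8.66 times (5.61 to 14.1) in the wild type. In the mutant library the order of levels ran from Unigene13701 through Unigene13903, Unigene3347, Unigene1570 and Unigene19004 to Unigene19612. Among neighbours in that order only the step from Unigene13903 to Unigene3347 exceeded counting error, by 2.71 times (1.73 to 4.46). Unigene3347 was 2.20 times (0.945 to 5.73) the next SOC1 unigene, Unigene1570. In the wild-type library the order was Unigene13903, Unigene13701, Unigene3347, Unigene1570, Unigene19612 and Unigene19004, and again only the step from AGL19 to SOC1, of 6.84 times (3.37 to 16.2), exceeded counting error. Among the 34255 unigenes kept (at least 1 RPKM in at least 1 library), the AGL19 levels lay between percentiles 65.0 and 67.5 in the libraries. Unigene3347 stood at percentile 22.6 in the wild-type library and 48.9 in the mutant library.

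In the comparisons made, the reads did not show that SOC1 and AGL19 differ in fold. The fold of the SOC1 sum was 1.56 times (0.880 to 2.83) that of the AGL19 sum, and without Unigene3347 it was 1.10 times (0.508 to 2.44). Unigene3347 alone against the AGL19 sum gave 2.36 times (0.991 to 6.22). Each of these intervals includes 1. With only hits of E-value at most 1e-10, which drops Unigene19612 and Unigene13701, the contrast was wider. The log2 fold was then 1.08 (0.21 to 2.00) for SOC1 and 0.10 (-0.25 to 0.44) for AGL19. The ratio of these folds was not computed.

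To set the members beside all other transcripts, each unigene was given log2((mutant RPKM + 1) / (wild-type RPKM + 1)), which understates differences at low levels. All 6 members were kept by the minimum of 1 RPKM. On this scale Unigene3347 was at 1.14, Unigene19004 at 0.55, Unigene13701 at 0.31, Unigene1570 at 0.29, Unigene13903 at 0.09 and Unigene19612 at -0.21. At a threshold of 2-fold, a log2 ratio of 1, 1 of the 6 was higher and 0 were lower. Of all kept unigenes 8.61% were at least 2-fold higher and 5.31% at least 2-fold lower. The ratio was positive in 5 of the 6, against 53.8% of kept unigenes, and the median of the 6 was 0.30 against 0.05 over all. With so few members, these shares are a description.

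The background depends on depth. Among the 8468 kept unigenes with 9 to 30 reads in all, the range of the SOC1 unigenes, 17.0% were higher in the mutant library by 2-fold or more and 11.7% were lower by as much. Among the 2506 with 25 to 35 reads, a range chosen around Unigene3347 after its values were seen, 13.3% were at least 2-fold higher. An exact interval wholly above 1, as for Unigene3347, was found for 19.8% of all kept unigenes, 13.0% of those with 9 to 30 reads and 16.8% of those with 25 to 35. A difference of at least 2-fold, or an interval above 1, was thus not rare among transcripts of like depth in these libraries. The log2 ratio of Unigene3347, at 1.14, lay at percentile 93.55 of all kept unigenes. The share at or above that ratio was not computed for those of like depth. Among the 278 kept unigenes with 284 to 305 reads, the range of AGL19, 3.96% were at least 2-fold higher and 61.2% were higher by any amount.

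**Figure D3:**
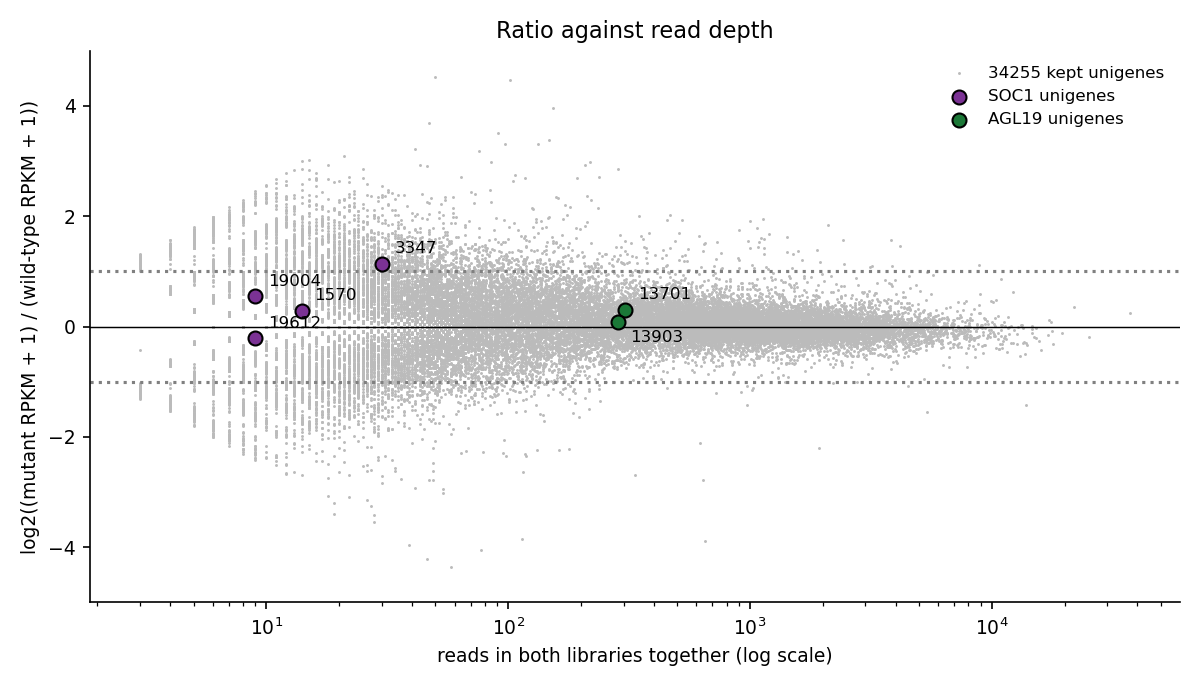
Log2 ratio of RPKM + 1 (vertical axis) against reads in both libraries together (horizontal axis, log scale) for the 34255 kept unigenes (grey; 1 lies outside the plotted range), with SOC1 unigenes in purple and AGL19 unigenes in green; dotted lines mark 2-fold. The spread widens toward few reads, where the SOC1 unigenes lie, and Unigene3347 sits just above the upper line.

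The genes that act on SOC1 in Arabidopsis were represented unevenly. No unigene had its best hit among the nearest relatives of SOC1 (AGL14, AGL42, AGL71, AGL72 and rice MADS50 and MADS56). Of 13 entries for upstream promoters, 6 were found, with 7 unigenes. Of the 7, 1 was at least 2-fold higher (8.61% of all kept unigenes were) and 0 were lower (5.31%). The ratio was positive in 5 (53.8% of all), and the median log2 ratio was 0.03. The most deeply read were 2 unigenes of GIGANTEA, a clock-linked activator of CONSTANS, with 2563 reads against 2990 (0.854-fold, 0.809 to 0.900, Unigene9215) and 765 against 891 (0.855-fold, 0.775 to 0.943, Unigene7045). SPL4, an age-pathway factor, had 162 against 161 reads (Unigene17573), and FD, the partner of FT, had 81 against 79 (Unigene12556). These most deeply read promoter unigenes were thus level or slightly lower in the mutant library. The one past 2-fold was FT, the mobile flowering signal, with 43 reads against 12 (3.57-fold, 1.85 to 7.43, Unigene27861), named after its values were seen.

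Of 17 entries for upstream repressors, 4 were found, with 9 unigenes, 8 of them kept. None of the kept 8 reached 2-fold on the RPKM scale in either direction, 3 had a positive ratio and the median was -0.28, beside 8.61% higher, 5.31% lower and 53.8% positive among all kept unigenes. RAP2-7, also called TOE1, is a repressor of FT of the APETALA 2 family, and its 3 unigenes were all lower in the mutant library. They had 711 reads against 824 (0.859-fold, 0.776 to 0.951, Unigene5031), 612 against 775 (0.786-fold, 0.706 to 0.875, Unigene761) and 168 against 341 (0.491-fold, 0.405 to 0.592, Unigene9555). The last of these just passed 2-fold in reads but not on the RPKM scale with its pseudocount. APETALA 2 went both ways over its 4 unigenes. Unigene7234 had 273 reads against 415 (0.655-fold, 0.560 to 0.765) and Unigene12861 had 170 against 264 (0.641-fold, 0.526 to 0.780), while Unigene20726 had 72 against 50 (1.43-fold, 0.986 to 2.10) and Unigene33328, which was not kept, had 10 against 6. TOE3 had 4 reads against 1 (Unigene19125). All but Unigene7234 in this group were named after their values were seen. SVP, which represses SOC1 directly in Arabidopsis, was higher in the mutant library, with 152 against 93 reads (1.63-fold, 1.25 to 2.13, Unigene1579). FLC and its listed relatives had no best hit.

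Downstream, LEAFY had no best hit, and the listed meristem identity genes gave 1 unigene. This was the hit to AGL8 of potato, a gene of the FRUITFULL group of inflorescence and fruit regulators, with 276 reads against 85 (3.23-fold, 2.53 to 4.17, Unigene12163). An APETALA 1 hit from white mustard, outside the listed entries, had 12 reads against 0 (Unigene27120, named after its values were seen). The exact lower limit of its fold was 2.77. Set against an assumed floor of 3 reads in the wild-type library, the fold would be 3.98, which is not a lower limit.

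Polycomb and vernalization genes, the regulators of AGL19 in Arabidopsis, stayed within 2-fold on the RPKM scale with its pseudocount. Of 8 entries 6 were found, with 13 unigenes, of which 0 were at least 2-fold higher or lower (8.61% and 5.31% of all kept unigenes) and 7 had a positive ratio (53.8% of all), with a median of 0.03. The exact interval lay wholly above 1 for 5 of the 13, against 19.8% of all kept unigenes. It lay wholly below 1 for 1, a share that was not computed over all kept unigenes. The most deeply read were hits to VIN3, a PHD-finger protein induced by cold, with 1813 reads against 1990 (0.907-fold, 0.851 to 0.967, Unigene17807, a weak hit at 4e-09), 1784 against 1643 (1.08-fold, 1.01 to 1.16, Unigene8773) and 813 against 846 (0.957-fold, 0.868 to 1.05, Unigene11331). EZA1, a histone methyltransferase of the Polycomb complex also known as SWINGER, had 766 against 797 reads (0.957-fold, 0.866 to 1.06, Unigene13170). The related methyltransferase CLF, named after its values were seen, had 115 against 70 (1.64-fold, 1.20 to 2.23, Unigene3299) and 38 against 19 (1.99-fold, 1.12 to 3.66, Unigene19843). Another CLF unigene had 2 against 5 (0.398-fold, 0.0379 to 2.43, Unigene36192), past 2-fold lower in reads but not on the RPKM scale. In 9 of the 13 the log2 ratio was no farther from 0 than that of the AGL19 unigene with the larger ratio. The matching share of all kept unigenes was not computed.

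**Figure D4:**
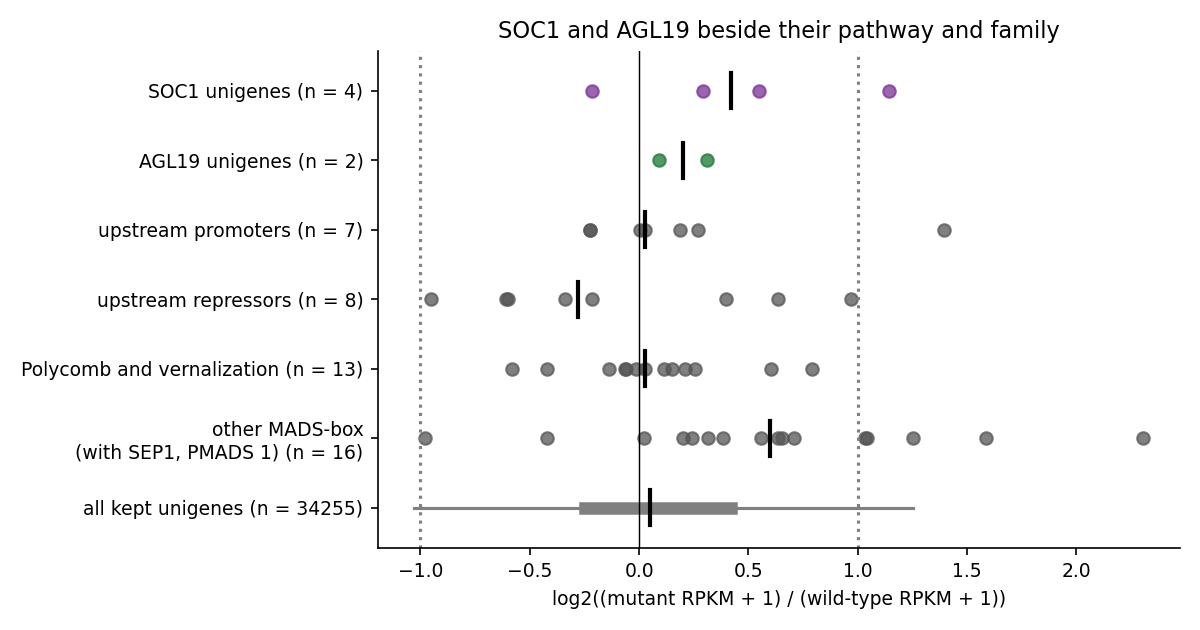
Log2 ratio of RPKM + 1 (horizontal axis) for the SOC1 and AGL19 unigenes and for the kept unigenes of each pathway list (points), with the median as a black bar; the last row shows the 5th to 95th percentile (thin line) and the middle quartiles (thick line) of all kept unigenes. The SOC1 unigenes spread from -0.21 to 1.14, and the AGL19 unigenes, at 0.09 and 0.31, lie near 0.

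Most other MADS-box unigenes also had more reads in the mutant library. The search words were MADS-box, Agamous-like, or floral homeotic protein AGAMOUS, APETALA 1, APETALA 3, PISTILLATA, DEFICIENS or GLOBOSA. The 13 other unigenes they found had a median log2 ratio of 0.38. On the RPKM scale 3 were at least 2-fold higher, 0 lower and 11 positive, against 8.61%, 5.31% and 53.8% of all kept unigenes. The 3 were the APETALA 1 and AGL8 hits and a hit to MADS18 of rice. The MADS18 hit had 377 reads against 180 (2.09-fold, 1.74 to 2.50, Unigene12215) and was named after its values were seen. SVP and the AGL8 hit, described above as regulator and target, are among the 13. Among the 19 with the members included, Unigene3347 ranked 3, after the APETALA 1 and AGL8 hits, and Unigene19612 ranked 17. With the 3 hits named next these ranks were 4 and 20 of 22. With 3 further MADS-box hits that the search words missed, SEPALLATA 1 and PMADS 1, the other 16 had a median log2 ratio of 0.60, and 5 of them were past 2-fold upward, 0 downward and 14 positive, beside the same background. The most deeply read were GGM13 (2427 reads against 2377, Unigene9295), AGL5, a carpel and fruit gene (721 against 549, Unigene6983), JOINTLESS, a tomato gene of the SVP group (460 against 397, Unigene12495), and ZMM17 (400 against 316, Unigene8625). All of these lay closer to level than Unigene3347. The hit to DEFICIENS, a petal and stamen identity gene of snapdragon, was the lowest of the 16, with 14 reads against 35 (0.398-fold, 0.198 to 0.759, Unigene34186), and was named after its values were seen. This hit was past 2-fold lower in reads but not on the RPKM scale with its pseudocount. It is 1 unigene and does not describe petal and stamen genes as a class. The PMADS 1 hit, with more reads, went the other way, with 319 against 190 (1.67-fold, 1.39 to 2.01, Unigene4356).

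Of the 13 MADS-box unigenes found by the search words, those with a read ratio nearest to that of the SOC1 sum were hits to AGL9 of petunia (9 reads against 5, 1.79-fold, 0.539 to 6.81), CMB1 of carnation (23 against 13, 1.76-fold, 0.856 to 3.79) and SVP. Their distances in log2 fold were 0.01, 0.04 and 0.15. With the 3 missed hits added, PMADS 1 of petunia (319 against 190, 1.67-fold, 1.39 to 2.01, Unigene4356) took the place of SVP at a distance of 0.11. This likeness is over a single ratio of 2 libraries.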

How the data were processed

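Per the file headers, the authors deposited raw read counts per unigene with library totals, and RPKM values made from them. The counts summed to the stated totals. RPKM recomputed from counts, lengths and totals matched the deposited values within 1e-04 for 100% of unigenes in both libraries. Length in bases and the E-value of the Swiss-Prot best hit are deposited columns of another kind (other). For the assembler, aligner, counter, filters and strandedness, nothing is given in the sources used here.

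Groups came from the source names in the labels. Folds and Clopper-Pearson, Poisson and conditional intervals were computed with Python 3.11.15 and scipy 1.17.1, and the steps were tested on simulated data. Log2 ratios used a pseudocount of 1 RPKM, kept unigenes had at least 1 RPKM in at least 1 library, and calls were made at 2-fold. No count model was fitted, since each group holds 1 library. The members and lists were chosen with earlier results of these data known. Named genes are the 6 members, up to 4 unigenes per list with the most reads, and the 3 MADS-box unigenes with at least 10 reads nearest in ratio to SOC1; other names are marked. Fungal hits were sorted by a list of genera. Alternatives changed the pseudocount, minimum, threshold, scaling and the unigenes summed.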

Additional observations from a re-analysis of the deposited data

How the results depend on the processing

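No paired analysis was possible because each group holds 1 library, and for the same reason no library could be left out. The log2 fold of the SOC1 sum (0.86) ranged from 0.36 without Unigene3347 to 1.45 with only the longest unigene, which is Unigene3347 itself. That of AGL19 (0.21) ranged from 0.10 to 0.33. All lay inside the counting interval of the sum. The ends of each range come from subsets of the same reads, so this is not an independent check. Trimmed-mean scaling left the lower limit of the SOC1 sum at 0.0047. Each unigene kept its sign under every alternative run, but Unigene3347 was under 2-fold with a pseudocount of 5 (0.63). Counts of unigenes at least 2-fold higher (2948) and lower (1818) became 4579 and 3165 with a pseudocount of 0.1, 280 and 92 with 5, 1328 and 597 at a minimum of 5 RPKM, and 249 and 138 at 4-fold. Removing fungal hits from the library totals, chosen after seeing the data, gave 0.86 and 0.21 for the sums. Few reads limit what the SOC1 unigenes can show.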
